A study of Mus musculus with 6 samples.

Results

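The genes of the glutamate and GABA receptors were examined in chromatin accessibility data from adult mouse neural stem cell cultures. The set held 44 of the 20807 protein-coding genes that GENCODE M21 places on chromosomes 1 to 19, taken by symbol: 43 genes of receptor subunits, and *Grid2ip*, whose symbol starts like that of a receptor gene but which encodes delphilin, a scaffold that binds the delta receptor. For each gene, the gene body and 20 kb on each side were searched, and peaks of the 6 libraries that overlapped by at least 1 bp were merged into regions. These windows held 610 of 116783 autosomal regions, and 7 region and gene pairs came from windows of neighbouring receptor genes that overlap each other.

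Ionotropic glutamate receptors are cation channels opened by glutamate. They form the AMPA, kainate, NMDA and delta families, and NMDA receptors also let calcium in. Metabotropic glutamate receptors and GABA-B receptors act through G proteins, whereas GABA-A receptors and the related rho receptors are chloride channels. In the adult subependymal zone (SEZ), GABA and glutamate released by neighbouring cells are known to act on neural stem cells and their progeny long before synapses form.

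All cultures were grown from the SEZ of Srr2del/del mice, in which CRISPR-Cas9 removed *Srr2*, an enhancer of *Sox2*, on a C57BL/6J background, and the age label was 10 weeks. Proliferating cultures (PROLIF) were labelled 2 days in vitro (DIV) and were grown with mitogens. The study describes cells of both states as plated on Matrigel with FGF for 2 days. The design text of the series instead gives neurospheres at 3 DIV for the proliferating cultures. Whether the culture format differed between the states therefore cannot be told from these sources. Early differentiating cultures (DIFF) were taken 1 day after mitogens were withdrawn in favour of 2% fetal bovine serum (2+1 DIV). Each state had 3 libraries, replicates 1, 2 and 4, of whole cultures. The study kept a pair of founder strains, and which strain each culture came from is not given in the sources used here. All groups used here thus carried the deletion, and the comparison was between states within the mutant. Wild-type libraries were not analysed here.

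The lists held 60006 to 88039 peaks, and the background pileup, which follows sequencing depth, ran from 2.85 to 3.63 reads in 5 libraries and was 6.01 in DIFF replicate 4. Promoter peaks in all 6 libraries were listed for 10 of 10 neural stem cell markers, 6 of 9 neuron, 3 of 6 oligodendrocyte, 2 of 6 microglia and 2 of 6 endothelium markers. In bulk cultures, fewer cells of a type and less signal per cell cannot be told apart. Where no peak was listed, the signal stayed under the caller's threshold, which does not show closed chromatin.

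The first question was which receptor genes had accessible promoters. A promoter peak within 3 kb of an annotated start was listed in all 6 libraries for 34 of 44 genes (77.3%), beside 65.7% of all protein-coding genes. Another 6 genes had one in some libraries and 4 in none. By family, these 34 were 2 of 3 AMPA, 5 of 5 kainate, 5 of 7 NMDA, 2 of 2 delta, 7 of 8 metabotropic glutamate, 10 of 13 GABA-A, 0 of 3 rho and 2 of 2 GABA-B receptor genes, together with *Grid2ip*. Receptor genes are long, with a median of 130 kb against 17.6 kb for all genes. Of the 24 of at least 100 kb, 23 had a promoter peak in every library (95.8%), beside 88.1% of all genes of that length, and 11 of the 20 shorter ones did (55.0%), beside 62.8% of all shorter genes. Potassium channel genes, another family of neuronal membrane proteins, stood at 64 of 92 (69.6%).

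**Figure D1:**
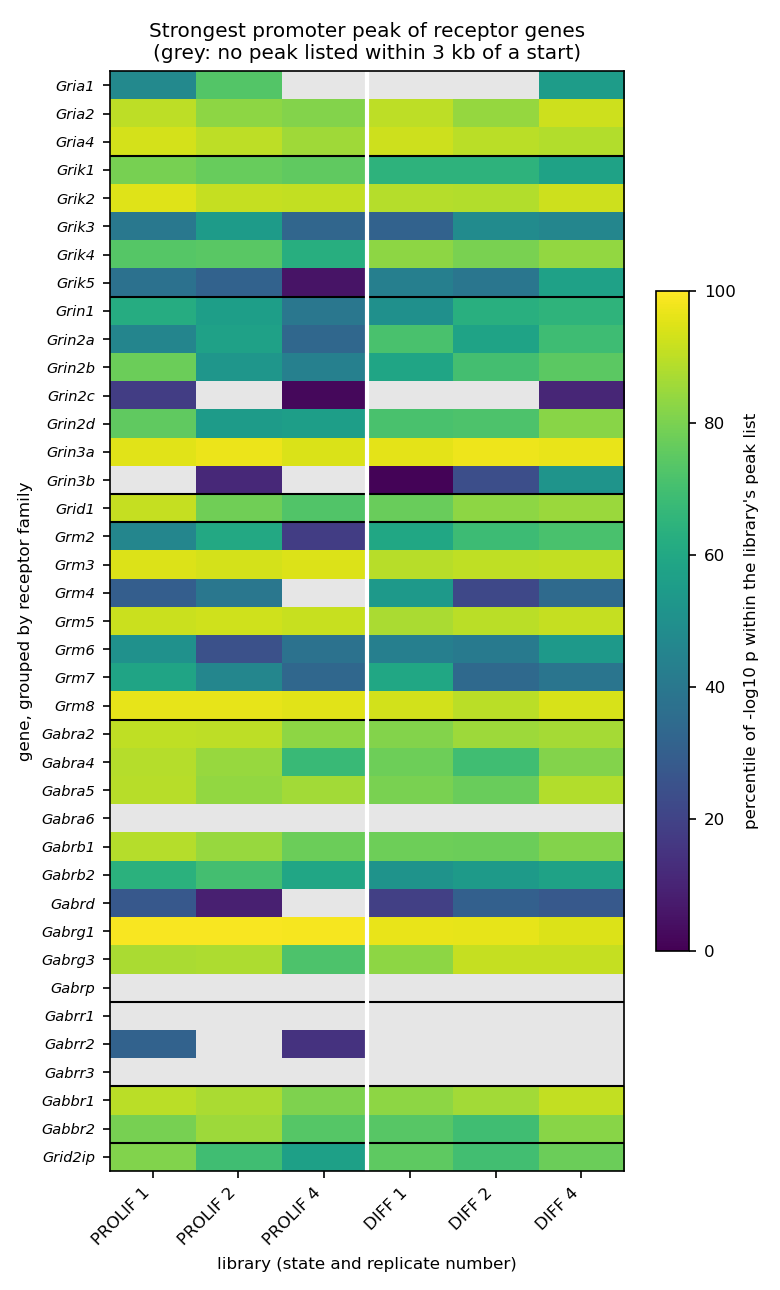
Percentile of each receptor gene's strongest promoter peak within the peak list of its library, by -log10 p (colour, 0 to 100), for 39 of the 44 genes (vertical axis, black lines between families) in the 6 libraries (horizontal axis); grey marks a library with no peak. *Gabrg1* and *Grin3a* stay above percentile 93 in every library, and *Gabra6*, *Gabrp*, *Gabrr1* and *Gabrr3* are grey throughout.

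Peak strength was compared as the percentile of a peak by -log10 p within its own list, since lists differ in depth. *Gabrg1*, which encodes the gamma1 subunit of the GABA-A receptor, had the highest promoter percentile of the set in the PROLIF libraries and DIFF replicate 1, at 99.1, 98.9 and 98.7 in PROLIF replicates 1, 2 and 4, and 96.7, 96.1 and 94.7 in DIFF. The PROLIF libraries thus ranked this promoter above each DIFF library. Its summit pileup was 266, 199 and 156 reads in PROLIF and 140, 149 and 188 in DIFF. The pileup groups overlapped, unlike the percentiles.

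Among glutamate receptor genes, *Grin3a*, the NMDA subunit that lowers calcium permeability, had percentiles 95.4, 97.1 and 94.4 in PROLIF and 96.0, 97.3 and 96.8 in DIFF. *Grm8* and *Grm3* encode metabotropic receptors that inhibit adenylyl cyclase. The *Grm8* promoter stood at 96.5, 96.2 and 95.5 in PROLIF and at 93.3, 89.6 and 94.1 in DIFF, and that of *Grm3* at 94.7, 93.7 and 94.8 in PROLIF and at 89.1, 90.3 and 90.8 in DIFF. Both were thus ranked higher by -log10 p in all PROLIF libraries. Their fold enrichment overlapped between the states. It was 9.60 to 10.9 in PROLIF and 8.86 to 9.78 in DIFF for *Grm8*, and 10.9 to 11.9 and 8.85 to 11.9 for *Grm3*. The kainate receptor gene *Grik2* had percentiles 95.1, 91.3 and 90.8 in PROLIF and 88.8, 88.4 and 92.2 in DIFF, and its groups overlapped.

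At the other end, *Grik5*, which encodes a high-affinity kainate subunit, had the weakest promoter found in every library, at percentiles 37.2, 31.4 and 5.32 in PROLIF and 43.2, 39.2 and 57.3 in DIFF. Its summit pileup was not low, at 30 to 96 reads, but its local background was 13.6 to 36.5 reads, and its fold enrichment was 2.12 to 2.65. *Grm2*, a presynaptic autoreceptor gene, had 45.8, 60.5 and 18.3 in PROLIF and 59.6, 68.5 and 71.3 in DIFF, and *Grm6*, known from retinal bipolar cells, had 50.6, 24.96 and 37.6 in PROLIF and 43.0, 41.1 and 53.9 in DIFF. The DIFF libraries all ranked *Grik5* above the PROLIF libraries, whereas the groups overlapped in *Grm2* and *Grm6*. PROLIF replicate 4, the shortest list, was lowest in *Grik5* and *Grm2*.

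Promoter peaks in some libraries only were weak or scattered over both states. *Gria1*, which encodes the GluA1 subunit of AMPA receptors, had one at percentiles 47.1 and 73.1 in PROLIF replicates 1 and 2 and at 55.4 in DIFF replicate 4, and none in the other libraries. *Grin2c*, an NMDA subunit gene best known from cerebellar granule cells, had one at 18.1 and 2.02 in PROLIF replicates 1 and 4 and at 10.7 in DIFF replicate 4. *Grin3b* had one at 11.5 in PROLIF replicate 2 and at 1.07, 23.9 and 51.6 in the DIFF libraries. *Grm4* and *Gabrd*, whose delta subunit forms extrasynaptic GABA-A receptors, had a promoter peak in 5 libraries and lacked one in PROLIF replicate 4. Their percentiles were 21.8 to 53.9 for *Grm4* and 8.73 to 30.6 for *Gabrd*. *Gabrr2* had one at 31.6 and 14.6 in PROLIF replicates 1 and 4, with summits at -2369 and -2371 bp from the nearest start.

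The 4 genes with no promoter peak were *Gabra6*, the alpha6 subunit gene of cerebellar granule cells, *Gabrp*, mostly expressed outside the brain, and *Gabrr1* and *Gabrr3*, of the rho receptors best known from the retina. No receptor gene had a promoter peak in the 3 libraries of one state and in none of the other, beside 0.231% (PROLIF) and 0.384% (DIFF) of all protein-coding genes. Receptor genes with a promoter peak numbered 39, 38 and 36 in PROLIF and 37, 37 and 39 in DIFF, a mean of 37.7 in each state (SD 1.53 and 1.15, n = 3).

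Base composition differed along with promoter peaks. In the 500 bp around the start, receptor genes with a promoter peak in all libraries had a median GC content of 62% and a median observed to expected CpG ratio of 0.603, and the 4 genes without one had 47.7% and 0.239. Over all protein-coding genes with no promoter peak, the medians were 46.0% and 0.158. *Gabrg1* was an exception within the set, with a strong promoter at a GC content of 42% and a CpG ratio of 0.455.

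RE1, the 17-base element bound by the repressor REST, is known from the promoters of many neuronal genes, and was searched by its consensus on both strands. Over the whole width of the regions, it was found in 4 of 45 receptor promoter regions shared by all libraries (8.89%), beside 0.542% of 15670 such promoter regions of all genes, and in 11 of 610 receptor regions (1.80%), beside 0.300% of all 116783. Within 100 bp of the summit, where every window has the same length, the shares were 6.67% of receptor promoter regions and 0.325% of all of them. Among these promoters were those of *Gria2* and *Grin1*, and an RE1 match also lay in an intronic region of *Grik3* found in DIFF only. A match is a description of the sequence and says nothing about binding. These 3 sites are shown because each lies in a region whose occupancy was the same within each state. They are given from RefSeq, GRCm38.p6, 5′ to 3′ on the strand of the match with 6 bases on each side, and the RE1 match is in capitals. Their positions are chr3:80802983-80803011 (plus) for *Gria2*, chr2:25319012-25319040 (minus) for *Grin1* and chr4:125503057-125503085 (plus) for *Grik3*.
Gria2 promoter: ttcgatTTTAGCACCGCGGACAGcgcttt
Grin1 promoter: atacgcTTCAGCACCTCGGACAGcacccg
Grik3 intron: actgtgTTCAGCACCACGGAGAGcggcct

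Both promoters were found in every library and differed in strength. *Gria2*, whose subunit makes AMPA receptors impermeable to calcium, stood at percentiles 90.2, 83.1 and 81.6 in PROLIF and 90.1, 84.3 and 92.4 in DIFF. *Grin1* encodes the subunit that every NMDA receptor contains. Its strongest promoter peak stood at 61.9, 56.1 and 39.7 in PROLIF and 50.2, 63.2 and 64.9 in DIFF. That peak was not in the RE1 region in every library, as the RE1 region itself stood at 24.3 to 64.9. In both genes the groups overlapped.

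The second question was where the accessible regions of these genes lie. Most lay inside introns. Of the 610 regions, 416 were intronic (68.2%), 89 within 3 kb of a start of the gene itself (14.6%), 33 at a promoter of another gene, 16 exonic, 31 in the upstream and 25 in the downstream flank. As pairs of region and gene, 68.2% of receptor pairs were intronic, beside 29.5% over all genes and 49.8% for potassium channel genes. Receptor genes are longer than both, with a median of 130 kb against 17.6 kb and 32.2 kb. Intron shares were not compared at matched gene length. Delta receptor genes were the extreme, with 89 of 92 regions in introns (96.7%). NMDA receptor genes had 38 of 85 in introns (44.7%) and 20 at promoters of other genes.

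**Figure D2:**
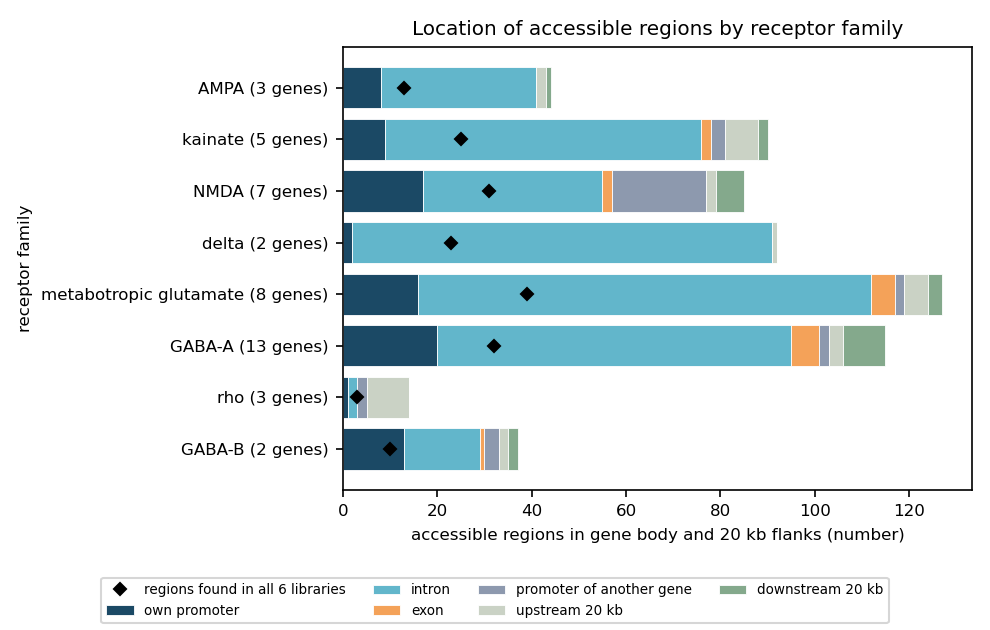
Accessible regions in gene body and 20 kb flanks (horizontal axis, number) for 8 receptor families (vertical axis), stacked by location; black diamonds give the regions found in all 6 libraries. Introns hold 89 of the 92 regions of the delta receptor genes, and the rho genes have 9 of 14 in the upstream flank.

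Density did not follow the large number of regions. The median receptor gene had 4.35 regions per 100 kb of window, beside 6.69 for all genes, 5.48 for all genes of at least 100 kb and 8.12 for potassium channel genes. The densest was *Grin2c*, with 20.7 per 100 kb, followed by *Gabbr1* with 17.4. The sparsest was *Gabra6*, with 1 region in its window and 1.83 per 100 kb. *Grid1*, which spans 763 kb, had 46 regions, and *Gabrg3*, at 671 kb, had 36.

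**Figure D3:**
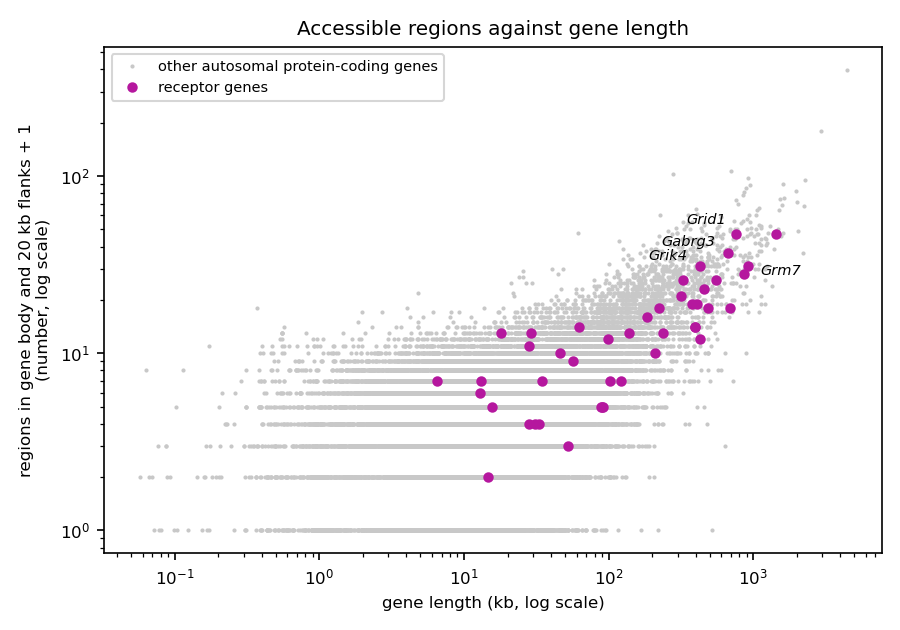
Regions in gene body and 20 kb flanks plus 1 (vertical axis, log scale) against gene length in kb (horizontal axis, log scale) for 44 receptor genes (purple) and all other autosomal protein-coding genes (grey). *Grid1*, *Gabrg3*, *Grik4* and *Grm7*, with 30 to 46 regions each, are named, and all 4 are longer than 100 kb.

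Regions differed in how many libraries shared them. Of all receptor regions, 179 were found in all 6 libraries (29.3%) and 199 in 1 library, beside 33.5% of all autosomal regions found in all 6 and 37.5% of those in gene windows. Promoter regions were shared by all libraries in 45 of 89 cases (50.6%) and intronic regions in 98 of 416 (23.6%), and over all genes 25.4% of intronic pairs were. Regions found in every library were numerous in *Grid1*, *Grm5* and *Gabrg3* (9 each) and in *Grin2b* (8). Most intronic regions were thus listed in only part of the libraries.

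Per library, receptor windows held 390, 323 and 264 peaks in PROLIF and 352, 363 and 433 in DIFF, a mean of 326 ± 63.0 and 383 ± 43.9 (SD, n = 3), and the groups overlapped. As a share of each list's autosomal peaks these were 0.486%, 0.499% and 0.454% in PROLIF and 0.507%, 0.527% and 0.506% in DIFF, so every DIFF library was above every PROLIF library. With 3 against 3 libraries, no exact permutation p can go below 0.1. The difference in peaks, 57.0 a library, was 26.2 without PROLIF replicate 4, 31.8 without DIFF replicate 4 and 89.2 without PROLIF replicate 1, and 1.67 when each list was limited to its strongest 20000 peaks. By family, GABA-B receptor genes had 22, 18 and 14 peaks in PROLIF and 28, 24 and 32 in DIFF, with no overlap. The delta receptor genes had 52, 49 and 33 in PROLIF and 50, 63 and 65 in DIFF, and the GABA-A genes 71, 69 and 54 against 62, 60 and 77, and both overlapped.

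The third question was which regions were found in one state only. In DIFF only, meaning in all 3 DIFF and no PROLIF libraries, 29 receptor regions were listed (4.75%), beside 3.52% of all autosomal regions and 3.65% of those in gene windows. In PROLIF only, 8 were listed (1.31%), beside 1.77% and 1.64%. Both counts were near the background. With each list limited to its strongest 20000 peaks, the counts were 5 in DIFF only and 6 in PROLIF only, and no background share was computed. By family, DIFF-only regions were 8 of 90 kainate (8.89%), 8 of 127 metabotropic glutamate (6.30%) and 5 of 92 delta receptor regions (5.43%). They were 3 of 115 GABA-A (2.61%), 3 of 37 GABA-B (8.11%), 1 of 44 AMPA (2.27%) and 1 of 85 NMDA receptor regions (1.18%). Of the PROLIF-only regions, 5 lay in windows of NMDA receptor genes (*Grin2a*, *Grin2b* and *Grin2d*), 5.88% of the 85 regions there. The one at *Grin2d* lay at a promoter of *Kcnj14*. These family counts are small, and differences between families were not tested. Introns held 21 of the 29 and 6 of the 8.

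With a library left out, the criterion is easier to meet and the counts were higher. DIFF-only regions numbered 46 without PROLIF replicate 1 and 51 without DIFF replicate 1, and PROLIF-only regions 16 without PROLIF replicate 2 or 4 and 13 without DIFF replicate 4. Peak names also carry a number of the input data set, lower in PROLIF 1 and 4 and DIFF 1 and higher in the other libraries. Within the lower numbers 71 receptor regions were found in DIFF and not in PROLIF (11.6%) and 29 the reverse (4.75%), beside 10.2% and 5.997% of all autosomal regions. Within the higher numbers these were 78 (12.8%) and 48 (7.87%), beside 11.1% and 7.84%. The part of these numbers in the result was not tested.

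The strongest DIFF-only region lay in an intron of *Grid1*, which encodes the GluD1 subunit of delta receptors, at chr14:35430047-35430955. Its percentiles in DIFF replicates 1, 2 and 4 were 68.1, 80.2 and 81.2, and its fold enrichment over local background was 7.34, 12.1 and 9.98. The next was a region of 1136 bp in an exon at the 3′ end of *Grm4* (chr17:27422370-27423505), at percentiles 63.0, 72.3 and 83.8. It was followed by introns of *Grm3* (chr5:9716369-9716628) at 55.0, 60.9 and 62.8, of *Grik3* (chr4:125629412-125629895) at 51.4, 52.9 and 61.1, and of *Grid1* again (chr14:35384500-35384953) at 47.6, 53.7 and 60.6. No PROLIF library listed a peak in any of them.

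The strongest PROLIF-only region lay in an intron of *Grm8* (chr6:27646247-27647132), at percentiles 76.6, 67.3 and 66.8 and a fold enrichment of 11.6, 8.38 and 7.80 in PROLIF replicates 1, 2 and 4. Introns of *Grin2a*, the NMDA subunit gene that rises as synapses mature, held the next 2, at chr16:9678655-9679137 with percentiles 73.6, 44.1 and 49.9 and at chr16:9751062-9751471 with 62.6, 42.3 and 41.3. The remaining 2 of the 5 strongest were an intron of *Grid1* (chr14:35254393-35254736) at 60.5, 51.8 and 39.7, and a promoter of *Kcnj14* in the window of *Grin2d* (chr7:45826474-45826929) at 46.2, 45.8 and 37.5. No DIFF library listed a peak in any of these.

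The sequences around the summits of both leading intronic regions are shown because they differ in the motifs they hold. Each has 201 bases of the plus strand of GRCm38.p6 from RefSeq, at chr14:35430382-35430582 (*Grid1*) and chr6:27646571-27646771 (*Grm8*). Capitals mark AP-1 (TGACTCA or TGAGTCA), the NFI site (TTGGCA) and SOX (ACAAAG or ACAATG), each on both strands. The *Grm8* window holds a match to each, AP-1 being the site of FOS and JUN proteins, and the *Grid1* window holds a TTGGCA match alone. No match overlaps another.
Grid1 intron, DIFF-only: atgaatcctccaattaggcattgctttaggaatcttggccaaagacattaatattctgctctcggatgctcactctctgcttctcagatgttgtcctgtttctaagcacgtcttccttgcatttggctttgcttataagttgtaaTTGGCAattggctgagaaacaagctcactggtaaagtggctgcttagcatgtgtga
Grm8 intron, PROLIF-only: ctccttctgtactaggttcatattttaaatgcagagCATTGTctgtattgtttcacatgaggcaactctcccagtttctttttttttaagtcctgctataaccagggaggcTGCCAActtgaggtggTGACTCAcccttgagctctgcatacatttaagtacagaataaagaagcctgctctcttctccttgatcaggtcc

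Within 100 bp of the summit, 2 of the 8 PROLIF-only receptor regions held AP-1 and 0 of the 29 DIFF-only ones did, beside 27.9% and 2.46% of all autosomal regions of these kinds and 5.78% of all regions. The second such receptor region was in an intron of *Grin2b* (chr6:136130507-136130745). TTGGCA was found in 11 of 29 DIFF-only receptor regions (37.9%) and 3 of 8 PROLIF-only ones, beside 32.9% and 19.2% of all regions of these kinds and 18.4% of all regions. SOX matches, the motif family of SOX2, lay in 9 of 29 and 2 of 8, beside 30.1% and 37.8% of such regions and 29.2% of all regions.

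The fourth question was whether regions found in every library differed in strength between the states. Fold enrichment was ranked within each library over the 39088 autosomal regions found in all 6, converted to normal scores and compared with limma. Of the 179 receptor regions, 15 were stronger in DIFF (8.38%) and 16 weaker (8.94%) at an adjusted p under 0.05, beside 6.62% and 8.52% of all regions tested, so the shares were near the background. The median score difference was -0.06 over receptor regions and 0.05 over all regions. Of the 31 called regions, 25 were intronic (11 stronger, 14 weaker, of 98 tested), and promoter regions gave 1 in each direction of 45. In each called region the ranks of the 3 PROLIF libraries and those of the 3 DIFF libraries did not overlap. The calls were made on these same ranks, so this adds no support to them. The count of stronger regions was 5 without DIFF replicate 2 and 7 without DIFF replicate 4, and that of weaker regions 9 without DIFF replicate 4. 11 regions, 3 stronger and 8 weaker, stayed under the threshold whichever library was left out.

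**Figure D4:**
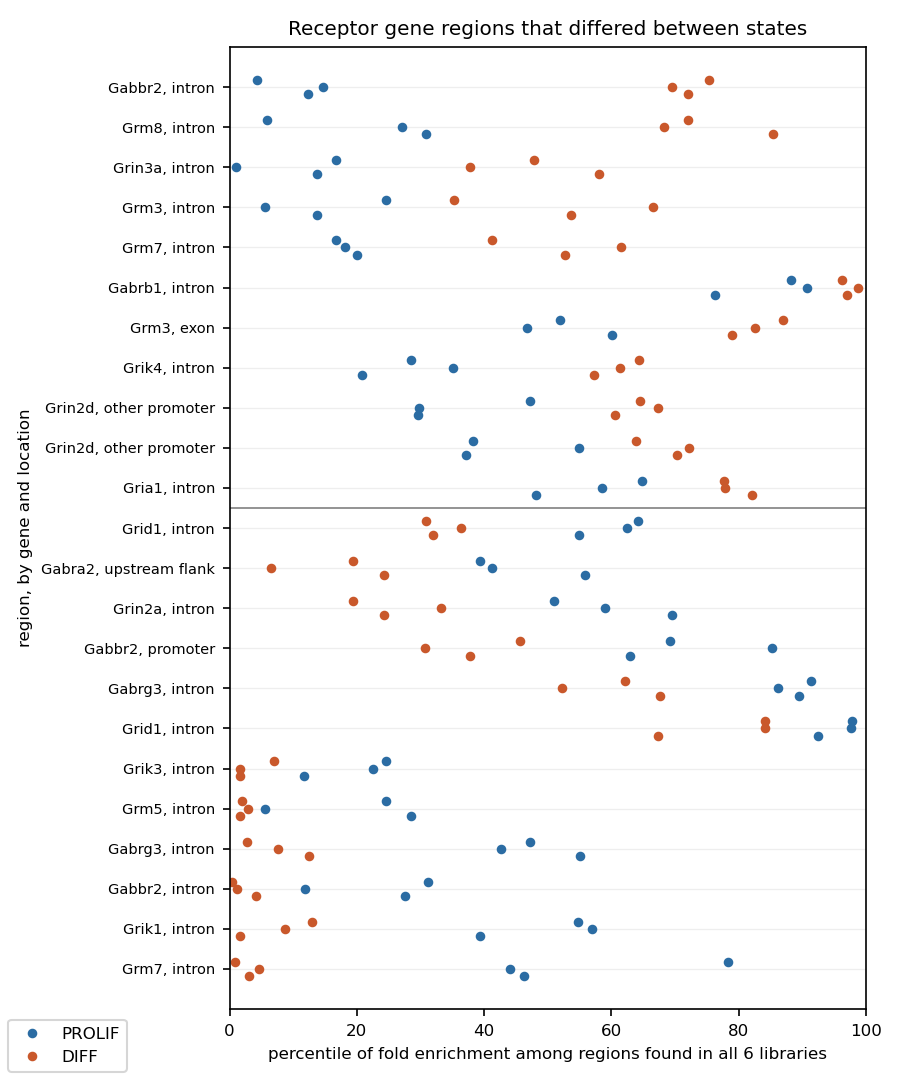
Percentile of fold enrichment among the regions found in all 6 libraries (horizontal axis) for 23 of the 31 receptor regions that differed between states (vertical axis, gene and location), with 1 point for each library, PROLIF in blue and DIFF in orange. The 11 regions above the grey line were stronger in DIFF and the 12 below it weaker, and at the top the *Gabbr2* intron has PROLIF points under 15 and DIFF points above 69.

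The largest gain was in *Gabbr2*, which encodes the GABA-B subunit that couples to G proteins. In an intron 4776 bp from the nearest start (chr4:46854816-46855648), the percentile among shared regions was 12.3, 14.7 and 4.28 in PROLIF and 72.0, 69.6 and 75.3 in DIFF. The score rose by 1.90 ± 0.25 (SE, adjusted p = 9.36e-05, limma), and the highest adjusted p with a library left out was 0.00152. The same gene also held falls, at a promoter region 769 bp from a start (chr4:46858867-46859274), at percentiles 63.0, 85.2 and 69.2 in PROLIF and 37.9, 30.7 and 45.6 in DIFF, and at another intron (chr4:46728256-46728597), at 27.6, 11.9 and 31.1 and then 4.08, 1.25 and 0.362. Their adjusted p were 0.00802 and 0.0104 (limma), and rose to 0.0545 without PROLIF replicate 2 and to 0.0582 without DIFF replicate 4. At the promoter region, the summit pileup was 55, 59 and 35 reads in PROLIF and 54, 51 and 97 in DIFF. Its local background was 4.11, 3.97 and 3.07 reads in PROLIF and 8.17, 7.16 and 12.9 in DIFF. Its percentiles by -log10 p overlapped, at 79.3, 85.4 and 73.7 in PROLIF and 73.9, 69.4 and 82.1 in DIFF. Regions of 1 gene thus moved in opposite directions in fold enrichment over local background.

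In an intron of *Grm8* (chr6:27317183-27317944) the percentile was 30.9, 27.0 and 5.93 in PROLIF and 85.4, 68.3 and 72.0 in DIFF, a score difference of 1.59 ± 0.28 (SE, adjusted p = 9.38e-04, limma). This gene also held the strongest PROLIF-only region above. An exon of *Grm3* (chr5:9570721-9571274) had 60.1, 46.8 and 51.9 in PROLIF and 78.9, 82.6 and 87.0 in DIFF (adjusted p = 0.00372, limma). These regions of *Grm8* and *Grm3* stayed under the threshold whichever library was left out.

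Another 3 gains each rested on 1 library. *Gabrb1*, a beta subunit gene, had an intronic region (chr5:71976280-71977102) at 76.3, 90.7 and 88.2 in PROLIF and 97.0, 98.7 and 96.2 in DIFF, with an adjusted p of 0.00923 (limma) that was 0.0533 without DIFF replicate 2. An intron of *Grin3a* (chr4:49826637-49827268) had 13.8, 0.947 and 16.7 in PROLIF and 58.0, 37.7 and 47.8 in DIFF, with an adjusted p of 0.0113 (limma) that was 0.0549 without DIFF replicate 1. For an intron of the kainate subunit gene *Grik4* (chr9:42573097-42573864), the values were 20.8, 35.1 and 28.5 against 57.3, 61.4 and 64.3, with an adjusted p of 0.0117 (limma) and 0.0676 without DIFF replicate 4.

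The largest fall was in *Grm7*, a presynaptic metabotropic receptor gene of 922 kb, in an intron 64394 bp from the nearest start (chr6:110709808-110710364). The percentile was 46.2, 44.1 and 78.3 in PROLIF and 3.01, 4.65 and 0.815 in DIFF, a score difference of -2.17 ± 0.33 (SE, adjusted p = 3.52e-04, limma). Another intron of *Grm7* (chr6:111449013-111449871) moved up, from 20.1, 18.2 and 16.7 to 52.7, 61.5 and 41.3 (adjusted p = 0.0139, limma), and without DIFF replicate 2 its adjusted p was 0.0855.

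*Gabrg3*, a gamma subunit gene of 671 kb, had falls in 2 introns. At chr7:57050999-57051710 the percentile was 89.6, 86.1 and 91.3 in PROLIF and 67.6, 52.3 and 62.1 in DIFF (adjusted p = 0.00200, limma), and at chr7:57276506-57277067 it was 55.1, 42.6 and 47.1 and then 12.6, 7.58 and 2.78 (adjusted p = 0.00266, limma). *Grik1*, which encodes the GluK1 kainate subunit, fell in an intron (chr16:88112705-88113320) from 39.3, 57.0 and 54.7 to 1.65, 8.66 and 12.9 (adjusted p = 0.00283, limma). The falls in *Grm7*, *Gabrg3* and *Grik1* stayed under the threshold with any library left out.

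The summit windows of the largest gain and the largest fall are shown for the motifs they hold, at chr4:46855026-46855226 (*Gabbr2*) and chr6:110709876-110710076 (*Grm7*), with 201 bases of the plus strand and capitals as above. The *Gabbr2* window has matches to TTGGCA and SOX, and the *Grm7* window has AP-1. Among the receptor regions weaker in DIFF, AP-1 was found in 2 of 16, and among those stronger in 0 of 15, beside 16.8% and 1.93% of all regions so called.
Gabbr2 intron, stronger in DIFF: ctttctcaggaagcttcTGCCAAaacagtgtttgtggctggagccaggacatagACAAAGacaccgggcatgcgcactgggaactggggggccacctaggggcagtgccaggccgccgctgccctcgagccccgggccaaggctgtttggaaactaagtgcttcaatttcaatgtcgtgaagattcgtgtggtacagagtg
Grm7 intron, weaker in DIFF: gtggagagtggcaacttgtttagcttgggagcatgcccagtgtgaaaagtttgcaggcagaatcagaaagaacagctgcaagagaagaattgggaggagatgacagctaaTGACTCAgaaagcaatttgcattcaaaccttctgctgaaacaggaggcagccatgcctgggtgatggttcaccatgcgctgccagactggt

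The last comparison summed the length covered by peaks over each gene window, per Mb of peak-covered autosomal sequence, with limma on log2 values after adding 200 bp. It could be fitted for 37 of the 44 genes. The others, among them *Gabra4*, *Gabra6*, *Gabrp*, *Gabrr1* and *Gabrr2*, had a mean under 1000 bp. Open length was longer in DIFF for 3 genes and shorter for 1, beside 3.56% and 2.8% of 14514 genes tested. The median log2 difference was 0.02 over receptor genes and -0.01 over all genes.

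*Gabbr2* had 137, 120 and 146 bp per Mb in PROLIF and 209, 192 and 177 in DIFF, a log2 difference of 0.49 ± 0.11 (SE, adjusted p = 0.00510, limma). Its call held without any 1 library (highest adjusted p 0.0391) but not on lists of equal length (adjusted p 0.0795). *Grm2* had 25.6, 26.0 and 20.3 in PROLIF and 39.7, 55.7 and 39.6 in DIFF (0.73 ± 0.19, SE, adjusted p = 0.0161, limma), and *Grik4* had 156, 134 and 141 and then 180, 199.97 and 196 (0.40 ± 0.10, SE, adjusted p = 0.0170, limma). *Grm2* was above the threshold without DIFF replicate 2 (0.141), and *Grik4* without PROLIF replicate 2, DIFF replicate 2 or DIFF replicate 4 (up to 0.0904). On lists of equal length their adjusted p were 0.0605 and 0.0938.

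*Grin2a* was the gene with a shorter open length in DIFF. It had 117, 133 and 92.5 bp per Mb in PROLIF and 85.2, 65.7 and 75.9 in DIFF, a log2 difference of -0.56 ± 0.13 (SE, adjusted p = 0.00866, limma). The groups did not overlap, but PROLIF replicate 4 was close to DIFF replicate 1, and without PROLIF replicate 2 the adjusted p was 0.0711. On lists of equal length it was 0.0157. Its promoter went the other way, at percentiles 45.6, 57.3 and 33.6 in PROLIF and 71.3, 58.2 and 69.0 in DIFF, each DIFF library being above each PROLIF library.

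**Figure D5:**
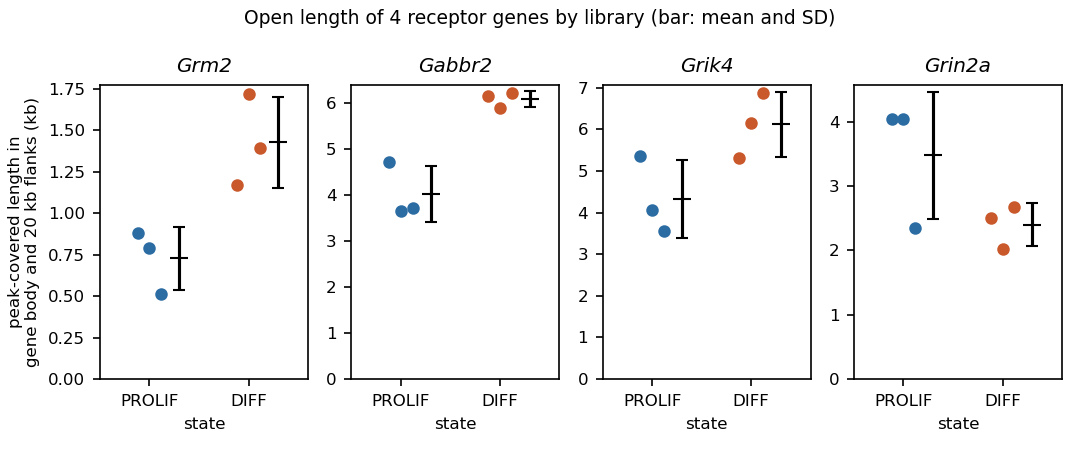
Length covered by peaks in gene body and 20 kb flanks (vertical axis, kb) in each library by state (horizontal axis) for the 4 receptor genes whose open length differed, with points for libraries and bars for mean and SD. The lengths overlap between the states in *Grik4* and *Grin2a*, whereas the fitted values, per Mb of peak-covered sequence, overlap in none of the 4 genes.

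Genes that make, carry or scaffold the transmitters and receptors were counted beside the receptors. Of 48 such genes, 40 had a promoter peak in all 6 libraries, 7 in some and 1, the scaffold gene *Grip2*, in none. The glutamine synthetase gene *Glul* stood at percentiles 93.9 to 96.4 over the libraries. *Slc32a1*, which encodes the vesicular GABA transporter, had a promoter peak in PROLIF replicate 1 at 25.3 and DIFF replicate 1 at 11.1 and in no other library. The chloride transporter genes *Slc12a2* and *Slc12a5*, which set whether GABA-A receptors excite or inhibit, had one in all 6 libraries. The percentiles of *Slc12a2* were 83.3, 79.4 and 82.3 in PROLIF and 92.4, 87.8 and 85.3 in DIFF, and those of *Slc12a5* 50.4, 33.7 and 45.03 in PROLIF and 67.8, 62.9 and 69.9 in DIFF, neither with overlap. Of 44 such genes tested for open length, *Shisa6*, an AMPA receptor auxiliary subunit gene, was longer in DIFF (0.50 ± 0.12 log2, SE, adjusted p = 0.0112, limma), *Cacng8*, another, was shorter (-0.87 ± 0.14 log2, SE, adjusted p = 3.11e-04, limma), and the other 42 did not pass the test. Without DIFF replicate 4 the adjusted p of *Shisa6* was 0.0619, while that of *Cacng8* reached at most 0.00404 with a library left out.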

How the data were processed

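The 6 ATAC-seq libraries were grouped by state and replicate number from the labels. The authors removed adapters (Cutadapt), trimmed reads and dropped those under 20 bases (Trimmomatic), and aligned the rest to GRCm38 (mm10) by Bowtie2. Picard marked duplicates, and MACS2 called narrow peaks separately for every library, with no model and an FDR of 0.05. Versions of these tools, read extension, a transposase shift and blacklists are not given in the sources used here, although all of them affect where peaks end and how many there are. Each deposited list holds positions, a score, the fold enrichment (a ratio over local background), and −log10 p and q values, as made by the authors.

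GENCODE M21 gave genes, exons and starts on this build. Percentiles rank peaks by −log10 p in the whole list. Pileup and background were solved from fold and p under the caller's Poisson model for all but 0.185% to 0.993% of peaks, and at least 99.99% of pileups came within 0.02 of a whole number. Regions shared by all libraries were fitted with limma 3.58.1 (R 4.3.3, trend and robust, Benjamini-Hochberg over all regions) on normal scores of within-library ranks of fold enrichment, and open length likewise over all genes with a mean of at least 1000 bp. Scripts were tested on simulated data.

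Named in full were genes with the 6 highest and 4 lowest promoters, by lowest percentile among those found in all libraries, genes with a promoter peak in 1 to 5, the 5 strongest regions of each state, the 6 smallest adjusted p in each direction, up to 4 genes a direction by open length, and the 5 with most shared regions. The other regions and promoters given with values, including the RE1 sites, the promoters of *Gria2*, *Grin1*, *Gabbr2* and *Grin2a*, the second *Gabbr2* and *Grm7* introns, *Glul*, *Slc32a1*, *Slc12a2* and *Slc12a5*, were chosen after their values were seen. Some members that this rule names are included in counts and families but not reported here. Members and lists were chosen with earlier results of these data known. P-values measure the spread between these cultures. Alternatives were a q of 0.001, lists limited to 60006 or 20000 peaks, other promoter distances and windows, 50% cover, other scales and filters, a replicate block and each library left out. Python 3.11.15 was used with pandas 2.3.3, numpy 2.4.6, scipy 1.17.1, matplotlib 3.10.9, pysam 0.24.0 and samtools 1.23.1. Sequences came from RefSeq assembly GRCm38.p6.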

Additional observations from a re-analysis of the deposited data

How the results depend on the processing

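Of 99 alternative values, 74 stayed within 1.5 times the reported count or within 1 SD. With the strongest 20000 peaks of each list, 16 receptor genes had a promoter peak in all libraries and 52 regions were found in all 6. At this limit 5 regions were DIFF-only and 6 PROLIF-only, and the difference in peaks was 1.67. The shares over all autosomal regions were not computed at this limit. At a q of 0.001, 13 shared regions were stronger and 11 weaker in DIFF. With a peak required to cover 50% of a region, 86 regions were found in all 6 and 18 were PROLIF-only. With lists of equal length, 14 regions were PROLIF-only and 1 gene, *Grin2c*, had a longer open length in DIFF. Within the libraries of lower input data numbers, a split added after seeing the data, 29 regions were PROLIF-only (4.75%) and 71 DIFF-only (11.6%), beside 5.997% and 10.2% of all regions, and within the higher numbers 48 and 78 (7.87% and 12.8%), beside 7.84% and 11.1%, where each state has fewer libraries and the criterion is easier to meet.

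Leaving out each library in turn gave 9 to 16 PROLIF-only and 30 to 51 DIFF-only regions, also by an easier criterion, 5 to 13 regions stronger and 9 to 14 weaker in DIFF, 1 to 4 genes with longer and 0 to 2 with shorter open length, 34 to 36 promoters, 180 to 209 shared regions, and a difference of 26.2 to 89.2 peaks.

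Deviations from the state mean correlated at 0.0616, 0.111 and 0.0972 between same-numbered libraries and at -0.0884 to -3.29e-04 between others, over 39088 regions. Each library thus correlated best with its own number, at low values. Whether same-numbered libraries came from the same culture is not given in the sources used here. The main fits carried no replicate block, so the p-values in the sections above leave out any such pairing. With the replicate block, 35 regions were PROLIF-only and 87 DIFF-only (a difference in at least 2 of 3 pairs and the reverse in none), 15 regions were stronger and 20 weaker, and open length was longer in 4 genes and shorter in 1. The fourth gene was *Grm4* (adjusted p 0.406 without the block and 6.36e-05 with it, limma), and of the pathway genes the block added *Homer2* (0.571 and 0.00423) and *Cacng5* (0.431 and 0.0270). PROLIF replicate 4 had the shortest list and the lowest background pileup, 2.85 reads.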
